A study of Homo sapiens with 24 samples.

Results

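The genes described here are 10 transcriptional targets of the tumour suppressor p53 that act outside the core apoptotic machinery and the CDK inhibitors: MDM2, TP53INP1, ZMAT3, XPC, RRM2B, AEN, PLK3, TP53I3, FDXR and GDF15. They were taken as a named list, each with 1 row, from the 25365 gene rows of the FPKM table (fragments per kilobase of transcript, scaled by mapped fragments). The rule that picks them uses names and no measured value, though the names were listed with earlier results of these data known. The study profiled polyadenylated RNA from HCC4006 and PC9, lung adenocarcinoma lines that carry activating EGFR mutations and depend on EGFR signalling. Within each line, YAP1 knockout (YAP1 KO) cells were set beside control (CTRL) cells; YAP1 is the transcriptional co-activator at the end of the Hippo pathway. OT is 100 nM osimertinib, an inhibitor of mutant EGFR, together with 30 nM trametinib, an inhibitor of the kinases MEK1 and MEK2, and DMSO is the vehicle. The 8 groups were YAP1 KO with OT, CTRL with OT, YAP1 KO with DMSO and CTRL with DMSO in HCC4006, and the same 4 in PC9, each of 3 dishes harvested after 24 h. The column headers show 1 YAP1 KO population per line, and no source used here says how it was made or what the CTRL cells carry. The replicates were dishes plated side by side, so p-values measure the spread between dishes.

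p53 is a transcription factor that is stabilised by DNA damage and other stress, and it raises the transcription of genes for growth arrest, DNA repair, cell death and metabolism. One of its targets, MDM2, encodes the ubiquitin ligase that marks p53 for destruction, so that the pathway limits itself; MDM4 is a related inhibitor. Many of these genes also answer to other factors: GDF15 is also a target of the stress factor ATF4, and PLK3 behaves as an immediate early gene that serum and MAP kinase signalling induce.

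Depth can be judged only as far as FPKM values show it, and absolute depth is unknown. The sum of FPKM values was lower in every OT library than in every DMSO library of its line. It was 507120 to 574160 under OT and 621936 to 660459 under DMSO in HCC4006. In PC9 it was 566982 to 593526 under OT and 604392 to 620813 under DMSO. Relative depth estimated from the smallest values ran from 0.945 to 1.42. HCC4006 CTRL OT replicate 1 had both the lowest sum and the highest relative depth. The part of depth in the results below was not tested. YAP1 was lower in every YAP1 KO library than in every CTRL library of its line and treatment, with means of 6.13 against 15.5 FPKM under OT and 4.24 against 18.2 FPKM under DMSO in HCC4006, and 11.0 against 34.2 FPKM under OT and 12.1 against 42.9 FPKM under DMSO in PC9. These YAP1 values cannot show whether protein remained. All 8 epithelial markers examined stood at 1 FPKM or more in every library of both lines. Of the leukocyte markers, CD3D was at 0 in every library, while the summed level of the 8-gene leukocyte list was 111 to 114 FPKM in YAP1 KO cells and 84.5 to 87.3 FPKM in CTRL cells under OT, against 22.0 to 24.2 FPKM in YAP1 KO cells and 21.9 to 25.0 FPKM in CTRL cells under DMSO in HCC4006. CD68, a lysosomal protein gene, made up most of that sum, with means of 107 and 82.8 FPKM in YAP1 KO and CTRL cells under OT, against 22.0 and 22.4 FPKM under DMSO. The fibroblast list summed to at most 22.1 FPKM in HCC4006 and 2.73 FPKM in PC9. The part of these lists in the results below was not tested.

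The DNA just upstream of 3 of the genes is printed because it carries letters of the p53 response element, the sequence that p53 contacts. A p53 half-site is a run of 10 bases, and 2 half-sites side by side form a full element. RefSeq promoter windows (GRCh38.p14, 250 bases before to 50 after each transcription start) were found for 8 of the 10 genes, as 13 windows, and were searched for the p53 half-site consensus, whose pattern reads the same on both strands. The first line holds an adjacent pair of half-sites, each with at most 1 mismatch, 94 to 75 bases before 1 of the MDM2 starts. The other lines each hold an exact half-site, 34 to 25 bases before the AEN start and 11 to 2 bases before 1 of the FDXR starts. Capitals mark the matched bases, and each line gives the 250 bases before the start, 5′ to 3′ on the gene's strand:
MDM2 (chr12:68808767-68809016, plus strand): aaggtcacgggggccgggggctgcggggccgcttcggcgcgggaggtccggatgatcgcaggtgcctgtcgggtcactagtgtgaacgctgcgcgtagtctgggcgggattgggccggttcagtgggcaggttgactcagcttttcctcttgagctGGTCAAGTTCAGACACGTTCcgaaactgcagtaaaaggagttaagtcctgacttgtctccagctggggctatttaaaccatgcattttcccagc
AEN (chr15:88621090-88621339, plus strand): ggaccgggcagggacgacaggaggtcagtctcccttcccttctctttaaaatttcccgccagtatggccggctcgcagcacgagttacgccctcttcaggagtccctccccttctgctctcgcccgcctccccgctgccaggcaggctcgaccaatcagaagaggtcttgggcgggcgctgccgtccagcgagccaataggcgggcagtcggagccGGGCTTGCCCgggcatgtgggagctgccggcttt
FDXR (chr17:74872995-74873244, minus strand): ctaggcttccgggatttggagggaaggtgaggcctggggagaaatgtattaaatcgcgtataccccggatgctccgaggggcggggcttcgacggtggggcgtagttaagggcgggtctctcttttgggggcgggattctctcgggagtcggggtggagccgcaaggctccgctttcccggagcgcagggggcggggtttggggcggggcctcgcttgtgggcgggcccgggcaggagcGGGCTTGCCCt
An adjacent pair of this kind was present in 114 of 35116 RefSeq windows (0.325%), and an exact half-site in 2329 windows (6.63%). Of the 4 MDM2 windows, the pair was found in the 2 overlapping ones downstream and in neither of the 2 upstream. These are matches of letters, and the study holds no measurement of p53 binding.

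The first question is how 24 h of OT moved these genes. The 10 genes did not move as a block: in both lines and both genotypes TP53INP1, TP53I3 and XPC rose, while AEN and PLK3 fell. TP53INP1 rose most, to 24.1 times its DMSO level in HCC4006 YAP1 KO cells, and AEN fell most on the log2(FPKM + 1) scale. GDF15 fell in HCC4006 and rose in PC9, MDM2 fell in PC9 and was not called in HCC4006, and no estimate for FDXR, RRM2B or, in HCC4006, ZMAT3 exceeded 0.48 on the log2 scale. With limma on log2(FPKM + 1) and Benjamini-Hochberg adjustment over all genes, 8 of the 10 genes were called at an adjusted p under 0.05 in HCC4006 YAP1 KO cells (5 higher, 3 lower), beside 82.8% of all 13113 genes tested (46.4% higher, 36.5% lower). In HCC4006 CTRL cells 8 of 10 were called (5 higher, 3 lower), beside 81.6% (45% higher, 36.6% lower). In PC9, 8 of 9 were called in YAP1 KO cells (5 higher, 3 lower), beside 78.3% of 12685 genes (36.9% higher, 41.4% lower), and 7 of 9 in CTRL cells (4 higher, 3 lower), beside 73% (32% higher, 40.9% lower). The PC9 counts include TP53INP1 and PLK3, which passed the filter on low values mainly through the treatment where they are high. The shares of the listed genes called lay near the share of all genes called. The median change of the 10 genes in HCC4006 was 0.36 in YAP1 KO and 0.27 in CTRL cells on the log2 scale, where all genes had medians of 0.11 and 0.09. In these bulk libraries, fewer cells with a transcript and less transcript per cell cannot be told apart.

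**Figure D1:**
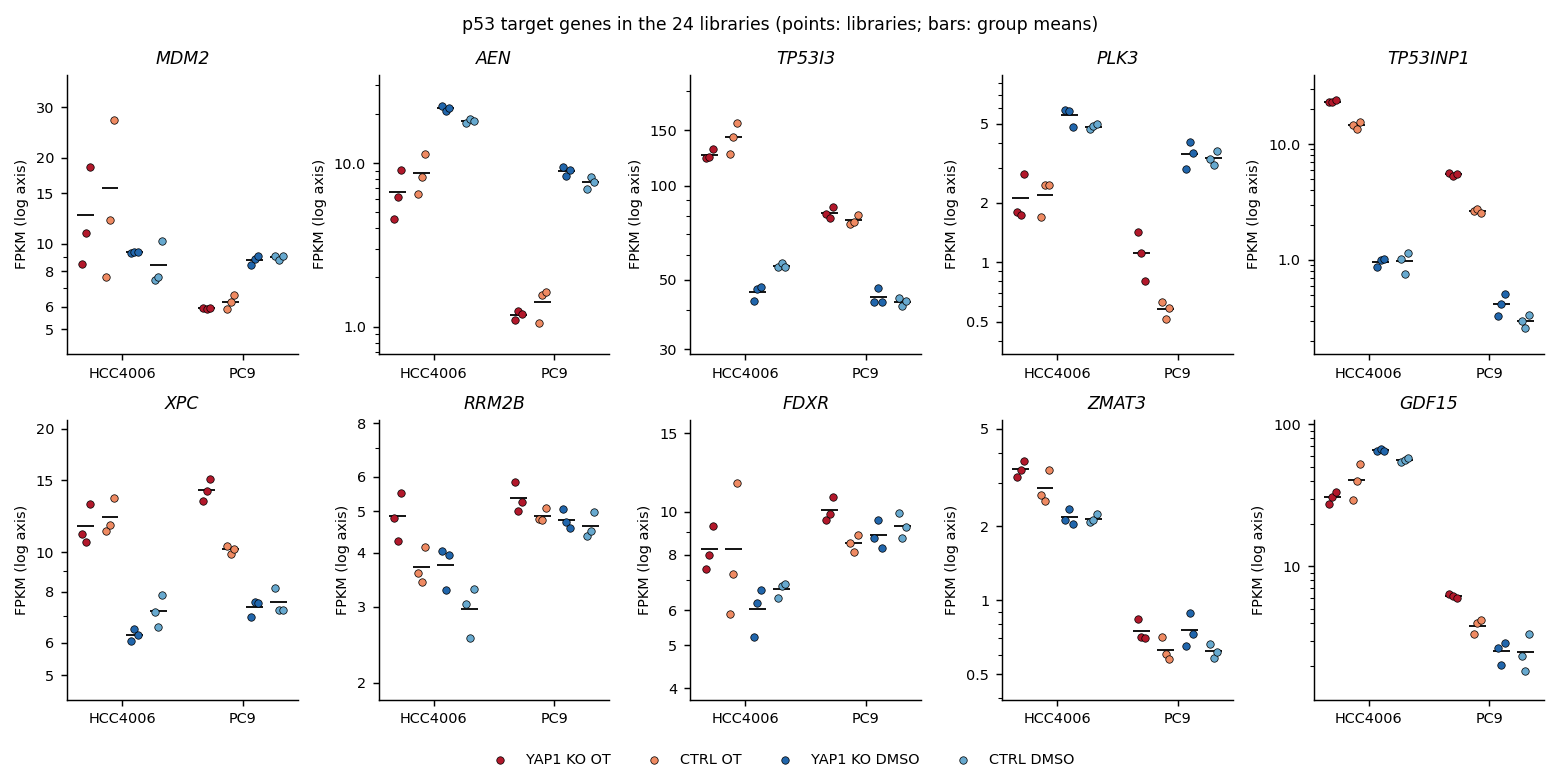
FPKM (log axis) of each of the 10 p53 target genes in the 24 libraries, 1 panel per gene; points are libraries and bars are means of 3, with HCC4006 groups left of PC9 groups and YAP1 KO left of CTRL within a treatment. TP53INP1, TP53I3 and XPC sit higher and AEN and PLK3 lower in every OT library than in the DMSO libraries of the same line, and the points of MDM2 spread from 7.64 to 27.1 FPKM in HCC4006 CTRL cells under OT.

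MDM2, the ubiquitin ligase that restrains p53 and the gene with the paired half-sites printed above, gave opposite estimates in the 2 lines. In HCC4006, MDM2 was 8.48, 10.9 and 18.5 FPKM in YAP1 KO cells under OT, against 9.25, 9.36 and 9.31 FPKM under DMSO. HCC4006 CTRL cells had 7.64, 12.1 and 27.1 FPKM under OT, against 7.46, 7.61 and 10.2 FPKM under DMSO. The OT libraries of HCC4006 spanned the DMSO range, from below it or within it to well above it. The log2 estimates, 0.34 in YAP1 KO cells (95% interval -0.44 to 1.11, limma adjusted p = 0.390) and 0.65 in CTRL cells (-0.12 to 1.43, adjusted p = 0.106), were not called. The CTRL value depended on single dishes: without CTRL OT replicate 3 it was 0.19 (adjusted p = 0.524), and without CTRL OT replicate 1 it was 1.04 and called (adjusted p = 0.0105). It was also called with 1 spread over all 24 libraries (adjusted p = 0.0313), with a replicate block (adjusted p = 0.0297) and after rescaling to the same FPKM sum (0.86, adjusted p = 0.0273). In PC9, MDM2 stood at 5.96, 5.91 and 5.96 FPKM in YAP1 KO cells and 5.91, 6.23 and 6.59 FPKM in CTRL cells under OT, against 8.42, 8.83 and 9.07 FPKM in YAP1 KO cells and 9.08, 8.72 and 9.02 FPKM in CTRL cells under DMSO. Every PC9 OT library was thus below every PC9 DMSO library. MDM2 fell by 0.49 on the log2 scale in PC9 YAP1 KO cells (limma, Benjamini-Hochberg adjusted p = 4.61e-07) and by 0.46 in CTRL cells (adjusted p = 1.24e-06). The call in PC9 was lost when 1 spread was estimated over all 24 libraries (limma adjusted p = 0.104 in YAP1 KO and 0.137 in CTRL cells). Of 12724 exon bases in a GRCh38 annotation, MDM2 shares 439 with AC025423.2 on the same strand and 785 with AC025423.4 on the opposite strand. Neither has a row of values, and their part in the MDM2 values was not tested.

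TP53INP1, which encodes a stress protein that supports p53 phosphorylation and takes part in autophagy, had the largest change of the 10. HCC4006 YAP1 KO cells held 22.9, 23.0 and 23.8 FPKM of TP53INP1 under OT, against 0.868, 0.998 and 1.02 FPKM under DMSO. In HCC4006 CTRL cells TP53INP1 was at 14.7, 13.4 and 15.4 FPKM under OT, against 1.02, 0.763 and 1.15 FPKM under DMSO. PC9 YAP1 KO cells had 5.65, 5.32 and 5.52 FPKM under OT, against 0.332, 0.415 and 0.511 FPKM under DMSO, and PC9 CTRL cells had 2.63, 2.76 and 2.56 FPKM under OT, against 0.297, 0.259 and 0.335 FPKM under DMSO. All 12 OT libraries held more TP53INP1 than any of the 12 DMSO libraries, and the 4 OT groups did not overlap one another. The means were 24.1 and 14.8 times higher under OT in HCC4006 YAP1 KO and CTRL cells, and 13.1 and 8.92 times higher in PC9 YAP1 KO and CTRL cells. On the log2(FPKM + 1) scale these were rises of 3.62, 2.97, 2.20 and 1.49, each with a limma adjusted p of 4.41e-10 or lower. In PC9 TP53INP1 passed the filter on low values through its 6 OT libraries alone, so it had to differ there; with no filter its adjusted p was 1.79e-10 in YAP1 KO and 5.11e-09 in CTRL cells.

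ZMAT3 encodes a zinc-finger RNA-binding protein through which p53 acts on splicing and mRNA stability. In HCC4006 YAP1 KO cells ZMAT3 stood at 3.18, 3.39 and 3.70 FPKM under OT, against 2.13, 2.35 and 2.05 FPKM under DMSO, and in CTRL cells at 2.69, 2.55 and 3.39 FPKM under OT, against 2.09, 2.12 and 2.26 FPKM under DMSO. OT and DMSO libraries did not overlap in either genotype. ZMAT3 rose by 0.48 in YAP1 KO and 0.29 in CTRL cells on the log2 scale (limma adjusted p = 0.000156 and 0.00564). In PC9 ZMAT3 was below 1 FPKM in all 12 libraries, at 0.576 to 0.844 FPKM under OT and 0.581 to 0.889 FPKM under DMSO, and it was not tested there.

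Of the pair of repair genes, XPC rose in both lines and RRM2B was called in HCC4006 and not in PC9. XPC encodes the protein that recognises distorting DNA lesions at the start of nucleotide excision repair. XPC reached 11.0, 10.6 and 13.1 FPKM in HCC4006 YAP1 KO cells under OT, against 6.08, 6.49 and 6.27 FPKM under DMSO, and 11.3, 11.7 and 13.6 FPKM in CTRL cells under OT, against 7.15, 6.56 and 7.87 FPKM under DMSO. In PC9, XPC was at 13.4, 14.1 and 15.1 FPKM in YAP1 KO cells under OT, against 6.93, 7.56 and 7.53 FPKM under DMSO, and at 10.4, 9.90 and 10.2 FPKM in CTRL cells under OT, against 8.16, 7.23 and 7.21 FPKM under DMSO. Within each line, no OT library of XPC overlapped the DMSO range. XPC rose by 0.79 and 0.68 on the log2 scale in HCC4006 YAP1 KO and CTRL cells (limma adjusted p = 3.38e-06 and 1.34e-05), and by 0.86 and 0.39 in PC9 YAP1 KO and CTRL cells (adjusted p = 2.22e-08 and 4.77e-05). XPC shares exon bases with the opposite-strand gene LSM3 (318 of 3832 in a GRCh38 annotation), and the sources used here do not say whether strand was used in counting. LSM3 moved the other way, at 77.1 to 85.8 FPKM in HCC4006 YAP1 KO and 74.0 to 90.9 FPKM in CTRL cells under OT, against 185 to 190 FPKM and 188 to 192 FPKM under DMSO. XPC shares more bases with the opposite-strand genes AC093495.1 (635) and AC090004.1 (413), which have no row of values. The part of these overlaps in the XPC values was not tested.

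RRM2B encodes the p53-inducible small subunit of ribonucleotide reductase, which supplies deoxynucleotides for repair outside S phase. Its HCC4006 levels were 4.82, 4.26 and 5.50 FPKM in YAP1 KO cells under OT, against 4.05, 3.27 and 3.95 FPKM under DMSO, and 3.59, 3.42 and 4.12 FPKM in CTRL cells under OT, against 3.05, 2.54 and 3.30 FPKM under DMSO. The ranges did not overlap but came close. RRM2B was called higher by 0.30 in YAP1 KO cells (limma adjusted p = 0.0157) and by 0.25 in CTRL cells (adjusted p = 0.0367). These calls were lost without YAP1 KO OT replicate 3 (0.22, adjusted p = 0.0740) or YAP1 KO DMSO replicate 2 (adjusted p = 0.0737), and, in CTRL cells, without CTRL OT replicate 3 (0.19, adjusted p = 0.132), CTRL DMSO replicate 1 (adjusted p = 0.0553) or CTRL DMSO replicate 2 (adjusted p = 0.151). Median-of-ratios scaling also ended both (adjusted p = 0.0639 in YAP1 KO and 0.0696 in CTRL cells), and testing with no filter ended the CTRL call (adjusted p = 0.0615). In PC9, RRM2B spanned 4.76 to 5.84 FPKM under OT and 4.38 to 5.05 FPKM under DMSO, and log2 changes of 0.14 in YAP1 KO and 0.07 in CTRL cells were not called (adjusted p = 0.0532 and 0.333). The YAP1 KO estimate was called under median-of-ratios scaling (0.20, adjusted p = 0.00903), after rescaling to the same sum (0.22, adjusted p = 0.00520), and in 3 of the fits that each left out a PC9 library. The CTRL estimate was called under median-of-ratios scaling (0.15, adjusted p = 0.0416).

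AEN and PLK3 fell under OT in both lines. AEN encodes a nuclease that digests DNA and RNA in cells dying after p53 activation. HCC4006 YAP1 KO cells had 4.56, 6.21 and 9.10 FPKM under OT, against 22.4, 20.8 and 21.6 FPKM under DMSO, and HCC4006 CTRL cells had 6.50, 8.26 and 11.4 FPKM under OT, against 17.5, 18.5 and 18.0 FPKM under DMSO. PC9 YAP1 KO cells had 1.10, 1.24 and 1.20 FPKM of AEN under OT, against 9.43, 8.34 and 9.02 FPKM under DMSO, and PC9 CTRL cells had 1.06, 1.57 and 1.62 FPKM under OT, against 6.93, 8.27 and 7.68 FPKM under DMSO. The OT and DMSO libraries were far apart in PC9 and separate in HCC4006, where the OT dishes of both genotypes differed among themselves. AEN fell by 1.61 and 1.00 on the log2 scale in HCC4006 YAP1 KO and CTRL cells (limma adjusted p = 7.05e-06 and 0.000448), and by 2.19 and 1.84 in PC9 YAP1 KO and CTRL cells (adjusted p = 3.45e-10 and 2.88e-09). The exact half-site printed above thus lies upstream of a gene that fell; this is a match of letters only.

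PLK3 encodes a polo-like kinase of the stress and DNA-damage response. PLK3 stood at 1.79, 1.73 and 2.80 FPKM in HCC4006 YAP1 KO cells under OT, against 5.89, 5.80 and 4.84 FPKM under DMSO, and at 1.69, 2.46 and 2.44 FPKM in HCC4006 CTRL cells under OT, against 4.71, 4.86 and 4.97 FPKM under DMSO. PC9 YAP1 KO cells had 1.41, 1.12 and 0.802 FPKM under OT, against 2.94, 4.06 and 3.56 FPKM under DMSO, and PC9 CTRL cells had 0.627, 0.518 and 0.589 FPKM under OT, against 3.33, 3.08 and 3.66 FPKM under DMSO. In each line all OT libraries lay below all DMSO libraries. PLK3 fell by 1.08 and 0.88 on the log2 scale in HCC4006 YAP1 KO and CTRL cells (limma adjusted p = 7.04e-06 and 4.66e-05), and by 1.10 and 1.46 in PC9 YAP1 KO and CTRL cells (adjusted p = 1.43e-06 and 1.38e-07). In PC9 it passed the filter on low values through 6 DMSO and 2 OT libraries, that is, through the group where it is high; with no filter its adjusted p was 1.19e-05 in YAP1 KO and 1.77e-06 in CTRL cells.

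The pair of oxidoreductase genes parted. TP53I3, also called PIG3, encodes a quinone oxidoreductase linked to reactive oxygen species and was the most abundant transcript of the 10 under OT in both lines. HCC4006 YAP1 KO cells had 122, 123 and 131 FPKM of TP53I3 under OT, against 42.7, 46.9 and 47.4 FPKM under DMSO, and HCC4006 CTRL cells had 126, 143 and 159 FPKM under OT, against 54.9, 56.5 and 54.9 FPKM under DMSO. In PC9, TP53I3 was at 81.4, 78.6 and 85.4 FPKM in YAP1 KO cells under OT, against 42.5, 47.0 and 42.5 FPKM under DMSO, and at 75.1, 76.6 and 80.6 FPKM in CTRL cells under OT, against 43.6, 41.3 and 42.9 FPKM under DMSO. The OT libraries were all higher, with no overlap. TP53I3 rose 2.75-fold and 2.57-fold in HCC4006 YAP1 KO and CTRL cells, and 1.86-fold and 1.82-fold in PC9 YAP1 KO and CTRL cells, as ratios of mean FPKM. The log2 rises were 1.44, 1.34, 0.88 and 0.85, with limma adjusted p of 6.08e-09 or lower. FAM228B, which overlaps TP53I3 by 80 exon bases on the opposite strand, never exceeded 11.4 FPKM. It too was higher under OT in both lines and genotypes. In CTRL cells FAM228B was at 3.09 to 4.19 FPKM under OT and 0.435 to 0.660 FPKM under DMSO in HCC4006. The PC9 CTRL cells had 7.95 to 9.34 FPKM under OT and 3.67 to 4.98 FPKM under DMSO. Its part in the TP53I3 values was not tested.

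FDXR encodes the mitochondrial reductase that passes electrons to ferredoxin for steroid and iron-sulphur cluster synthesis. FDXR stood at 7.41 to 9.26 FPKM in HCC4006 YAP1 KO and 5.89 to 11.6 FPKM in CTRL cells under OT, against 5.23 to 6.64 FPKM and 6.38 to 6.88 FPKM under DMSO. In PC9 the YAP1 KO cells had 9.59, 9.90 and 10.8 FPKM of FDXR under OT, against 8.72, 9.55 and 8.27 FPKM under DMSO, and CTRL cells 8.49, 8.10 and 8.84 FPKM under OT, against 9.91, 8.74 and 9.23 FPKM under DMSO. Of the 4 comparisons FDXR was called in 1, higher in PC9 YAP1 KO cells (0.17 on the log2 scale, limma adjusted p = 0.0226), where the ranges just missed overlapping. That call was lost without any 1 of 3 YAP1 KO dishes: OT replicate 3 (adjusted p = 0.0977), DMSO replicate 1 (adjusted p = 0.0580) or DMSO replicate 3 (adjusted p = 0.0964). It was also lost with 1 spread over all 24 libraries (adjusted p = 0.263). The other FDXR estimates were 0.39 in HCC4006 YAP1 KO cells (adjusted p = 0.0520), 0.22 in HCC4006 CTRL cells (adjusted p = 0.257) and -0.12 in PC9 CTRL cells (adjusted p = 0.102). The HCC4006 YAP1 KO estimate was called under 8 of 21 alternatives, among them rescaling to the same sum (0.56, adjusted p = 0.00386), a replicate block (adjusted p = 0.0126) and fits without HCC4006 CTRL OT replicate 1 or 3. The HCC4006 CTRL estimate turned to -0.03 without CTRL OT replicate 3 (adjusted p = 0.811), and was 0.40 and called without CTRL OT replicate 1 (adjusted p = 0.0298) and 0.41 and called after rescaling to the same sum (adjusted p = 0.0228).

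GDF15, a secreted cytokine of the TGF-beta superfamily that is raised by many kinds of cell stress, moved in opposite directions in the 2 lines. In HCC4006, GDF15 was at 27.5, 31.0 and 33.6 FPKM in YAP1 KO cells under OT, against 65.3, 66.8 and 65.3 FPKM under DMSO, and at 29.3, 39.8 and 52.8 FPKM in CTRL cells under OT, against 54.0, 56.1 and 58.0 FPKM under DMSO. All OT libraries of HCC4006 were lower, though CTRL OT replicate 3 came close to the DMSO range. GDF15 fell by 1.08 on the log2 scale in HCC4006 YAP1 KO cells (limma adjusted p = 2.74e-05) and by 0.49 in CTRL cells (adjusted p = 0.00970). In PC9 it was at 6.35, 6.16 and 5.94 FPKM in YAP1 KO cells under OT, against 2.67, 2.03 and 2.88 FPKM under DMSO, and at 3.32, 3.95 and 4.17 FPKM in CTRL cells under OT, against 2.33, 1.83 and 3.33 FPKM under DMSO. The PC9 YAP1 KO ranges were apart and the CTRL ranges touched. GDF15 rose by 1.03 in PC9 YAP1 KO cells (adjusted p = 2.02e-05) and by 0.48 in CTRL cells (adjusted p = 0.00746). The fall in HCC4006 CTRL cells was not called after all libraries had been scaled to 1 FPKM sum (-0.27, adjusted p = 0.0537), and without CTRL OT replicate 1 it was -0.28 (adjusted p = 0.0234).

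**Figure D2:**
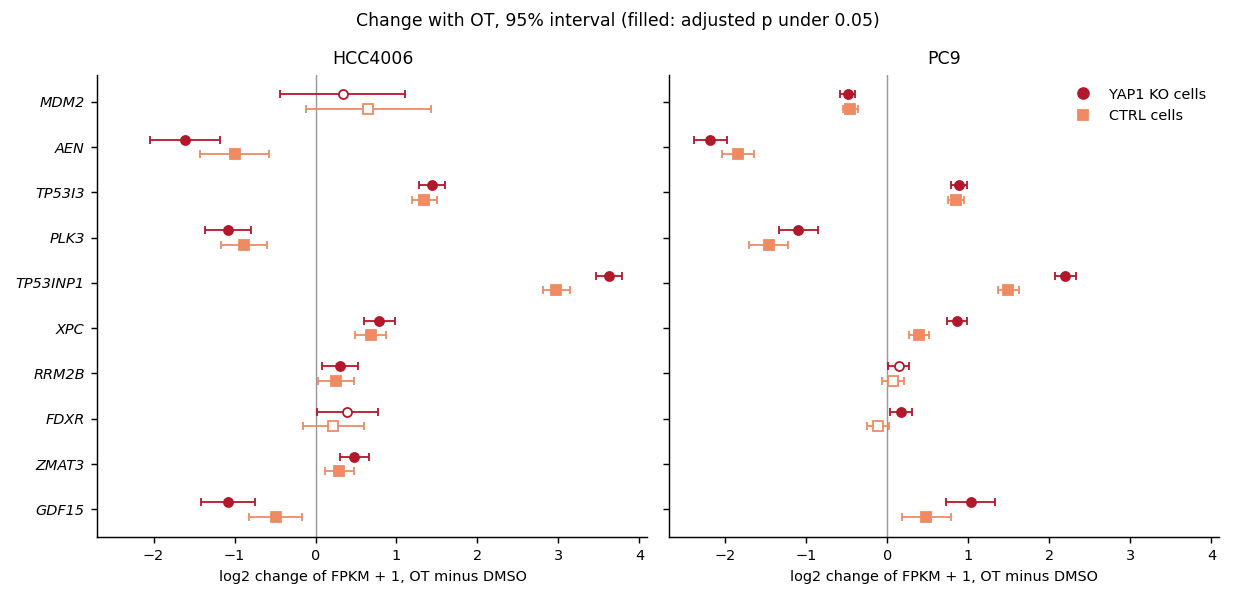
Change of each gene under OT relative to DMSO, on the log2(FPKM + 1) scale (x axis), in HCC4006 and PC9, for YAP1 KO and CTRL cells; bars are 95% intervals from limma and filled points passed an adjusted p of 0.05. TP53INP1, TP53I3 and XPC lie to the right of 0 and AEN and PLK3 to the left in both lines, while MDM2 in HCC4006 has wide intervals that cross 0.

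The second question is whether YAP1 knockout moved these genes. Without drug few of them were called. Under DMSO in PC9, 0 of 9 genes were called by limma, beside 39.9% of all genes. AEN, at 8.34 to 9.43 FPKM in YAP1 KO and 6.93 to 8.27 FPKM in CTRL cells, was the 1 gene of the 9 whose unadjusted limma p was under 0.05, and no other tool was run. Under DMSO in HCC4006, 1 of 10 was called, beside 17.8% of all genes. That gene was TP53I3, whose values of 42.7 to 47.4 FPKM in YAP1 KO cells all lay below the 54.9 to 56.5 FPKM of CTRL cells. It was lower by 0.28 on the log2 scale (limma adjusted p = 0.0198), a call lost without CTRL DMSO replicate 1 (adjusted p = 0.0523), CTRL DMSO replicate 2 (adjusted p = 0.0636) or YAP1 KO DMSO replicate 1 (adjusted p = 0.0868).

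Under OT, 5 of 9 genes were called in PC9, all higher in YAP1 KO than in CTRL cells, beside 53.7% of all genes called in either direction and 28.5% called higher. TP53INP1 was at 5.32 to 5.65 FPKM in YAP1 KO and 2.56 to 2.76 FPKM in CTRL cells, a 2.08-fold ratio (0.83 on the log2 scale, limma adjusted p = 3.19e-07). PLK3 was 0.802 to 1.41 FPKM in YAP1 KO and 0.518 to 0.627 FPKM in CTRL cells, a 1.92-fold ratio (0.41, adjusted p = 0.00782). PLK3 shares 78 exon bases with the opposite-strand gene TCTEX1D4 in a GRCh38 annotation. In the same libraries TCTEX1D4 was at 0.994 to 1.50 FPKM in YAP1 KO and 0.511 to 0.645 FPKM in CTRL cells. Its part in the PLK3 difference was not tested, and whether strand was used in counting is not given. XPC was 1.40 times higher in YAP1 KO cells (0.44, adjusted p = 3.68e-05), GDF15 rose by 0.57 (adjusted p = 0.00391) and FDXR by 0.23 (adjusted p = 0.00851), with no overlap between the genotypes for any of these 5 genes. The ranges come from the libraries that gave the calls and add no separate support. The share of all genes without overlap is not given here. The FDXR call was lost when 1 spread was estimated over all 24 libraries (adjusted p = 0.183). In HCC4006 under OT, 2 of 10 genes were called, both higher in YAP1 KO cells, beside 43.6% of all genes and 27.2% called higher. TP53INP1 was 1.60 times higher, at 22.9 to 23.8 FPKM in YAP1 KO and 13.4 to 15.4 FPKM in CTRL cells (0.64, adjusted p = 3.72e-05). RRM2B, at 4.26 to 5.50 FPKM in YAP1 KO and 3.42 to 4.12 FPKM in CTRL cells, was higher by 0.31 (adjusted p = 0.0260), a call lost without CTRL OT replicate 1, CTRL OT replicate 2, YAP1 KO OT replicate 1 or YAP1 KO OT replicate 3 (adjusted p = 0.0571, 0.0852, 0.0601 and 0.108) and under median-of-ratios scaling (adjusted p = 0.0572). Some alternatives called genes lower in YAP1 KO cells. Under median-of-ratios scaling 1 gene was called higher and 2 lower (GDF15 and TP53I3). With rescaling to the same sum, and with a replicate block, 2 genes were called higher and 2 lower (GDF15 and TP53I3). Without CTRL OT replicate 1, 1 was called higher and 3 lower (GDF15, TP53I3 and AEN). The shares of all genes called at these settings are not given here. MDM2 was called in neither line, with estimates of -0.18 in HCC4006 and -0.06 in PC9; the HCC4006 value was 0.29 without CTRL OT replicate 3 and 0.05 without YAP1 KO OT replicate 1, and called in neither fit.

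Whether the response to OT differed between YAP1 KO and CTRL cells was tested as the interaction of genotype and treatment. TP53INP1 was called in both lines, and none of the 8 other genes tested in both was. Its response was larger in YAP1 KO cells by 0.65 in HCC4006 (95% interval 0.42 to 0.88, limma adjusted p = 0.00137) and by 0.70 in PC9 (0.52 to 0.89, adjusted p = 8.90e-05). In PC9 this rests on DMSO levels under 0.6 FPKM, and with a pseudocount of 0.01 the difference was 0.58 and not called (adjusted p = 0.0783). XPC also responded more in PC9 YAP1 KO cells, by 0.48 (adjusted p = 0.000938). FDXR differed by 0.29 in PC9 (adjusted p = 0.0279), a call lost without any 1 of 5 dishes, namely replicates 1 and 3 of YAP1 KO with DMSO, replicate 3 of YAP1 KO with OT, replicate 2 of CTRL with OT and replicate 1 of CTRL with DMSO (adjusted p = 0.0563 to 0.0678). In all, 1 of 10 genes was called in HCC4006, beside 18.6% of all genes, and 3 of 9 in PC9, beside 27%. GDF15 missed the threshold in both lines, with estimates of -0.59 in HCC4006 (adjusted p = 0.0812) and 0.55 in PC9 (adjusted p = 0.0556); both were called after rescaling to the same sum (adjusted p = 0.0291 in HCC4006 and 0.0369 in PC9) and with a replicate block (adjusted p = 0.0429 and 0.0378). Without HCC4006 CTRL OT replicate 1 the HCC4006 value was -0.80 and called (adjusted p = 0.00201). The PC9 value was called without CTRL DMSO replicate 2 (0.69, adjusted p = 0.0146) or YAP1 KO DMSO replicate 3 (0.62, adjusted p = 0.0484). AEN was not called, with estimates of -0.61 in HCC4006 and -0.34 in PC9. It was called without HCC4006 YAP1 KO OT replicate 3 (-0.84, limma adjusted p = 0.0314) and without PC9 CTRL OT replicate 1 (-0.46, adjusted p = 0.00596). PLK3 in PC9 was not called (0.36), but was with pseudocounts of 0.1 (0.75, adjusted p = 0.0429) and 0.01 (0.84, adjusted p = 0.0354).

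**Figure D3:**
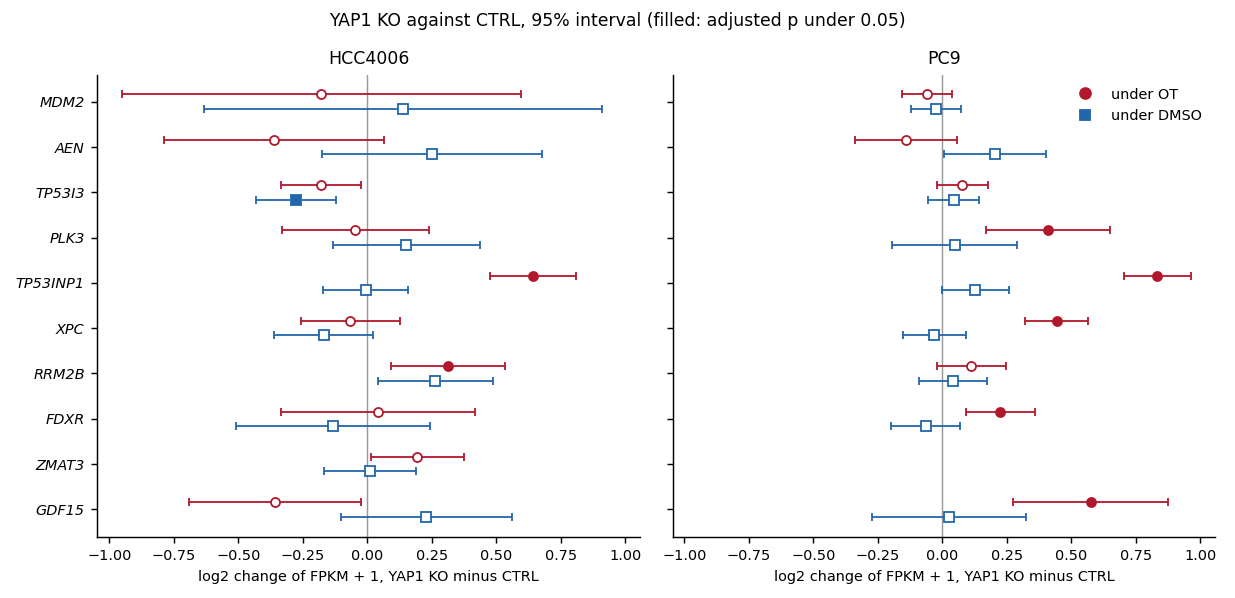
Difference of YAP1 KO from CTRL cells for each gene, on the log2(FPKM + 1) scale (x axis), under OT and under DMSO in each line; bars are 95% intervals from limma and filled points passed an adjusted p of 0.05. Under DMSO 1 point is filled, TP53I3 in HCC4006 at -0.28, and under OT TP53INP1 is filled in both lines at 0.64 and 0.83.

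The lines were compared in 1 fit over all 24 libraries, where 9 of the 10 genes were tested and differences are HCC4006 minus PC9. In CTRL cells under DMSO, 7 of 9 were called, beside 82.1% of all 11845 genes. GDF15 was furthest apart, at 54.0 to 58.0 FPKM in HCC4006 and 1.83 to 3.33 FPKM in PC9, a 22.4-fold ratio (4.05 on the log2 scale, limma adjusted p = 7.97e-16). AEN was 2.36 times higher in HCC4006 (1.14, adjusted p = 1.51e-06), and RRM2B was lower by 0.51 (adjusted p = 1.54e-05). MDM2 was not called (-0.09, adjusted p = 0.773). Under OT, 8 of 9 were called in CTRL cells, beside 83.5%. MDM2 was then 2.50 times higher in HCC4006 (1.02, adjusted p = 0.00161), and 0.56 higher without HCC4006 CTRL OT replicate 3 (adjusted p = 0.0141). In order of mean level over the 8 groups, TP53INP1 ran HCC4006 YAP1 KO OT, HCC4006 CTRL OT, PC9 YAP1 KO OT and PC9 CTRL OT, each apart from the next, and then the 4 DMSO groups, of which the 2 genotypes of a line overlapped. GDF15 ran through all 4 HCC4006 groups before any PC9 group.

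The response to OT itself differed between the lines for 4 of 9 genes in YAP1 KO cells, beside 63.7% of all genes, and for 7 of 9 in CTRL cells, beside 65.2%. TP53INP1 rose more in HCC4006, by 1.43 in YAP1 KO and 1.48 in CTRL cells (limma adjusted p = 3.95e-11 and 2.43e-11). The size of these 2 values depends on low PC9 levels under DMSO, with means of 0.419 FPKM in YAP1 KO and 0.297 FPKM in CTRL cells. Over the alternatives the lowest TP53INP1 differences were 0.88 in YAP1 KO and 0.77 in CTRL cells, and all stayed called. In PC9 TP53INP1 passed the filter through its 6 OT libraries alone. TP53I3 also rose more in HCC4006, by 0.56 and 0.49 (adjusted p = 1.29e-05 and 5.39e-05). AEN fell less in HCC4006, with differences of 0.57 and 0.84 (adjusted p = 0.0345 and 0.00314); the YAP1 KO difference was 0.35 and not called without HCC4006 YAP1 KO OT replicate 3 (adjusted p = 0.129). GDF15 had opposite signs, with differences of -2.11 in YAP1 KO and -0.97 in CTRL cells (adjusted p = 4.33e-08 and 0.000587). In CTRL cells alone PLK3 (0.58, adjusted p = 0.00744), MDM2 (1.11, adjusted p = 0.0155) and XPC (0.30, adjusted p = 0.0202) were also called. The MDM2 difference was 0.64 without HCC4006 CTRL OT replicate 3 (adjusted p = 0.0394). The XPC difference was not called under median-of-ratios scaling (0.16, adjusted p = 0.193), or without HCC4006 CTRL OT replicate 3, HCC4006 CTRL DMSO replicate 2 or PC9 CTRL DMSO replicate 1. The YAP1 KO effect differed between the lines for 4 of 9 genes under OT, beside 42.5% of all genes, among them GDF15 (-0.93, adjusted p = 0.00166) and XPC (-0.51, adjusted p = 0.000651), and for 1 of 9 under DMSO, TP53I3 (-0.32, adjusted p = 0.00863), beside 30%.

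The OT dishes of HCC4006 differed among themselves in the same genes. Replicate 3 was the highest of the 3 dishes in both the YAP1 KO and the CTRL group for 9 of the 10 genes, all but PLK3, against 20 of 28 other p53 targets tested (71.4%) and 1821 of 13113 genes (13.9%). This dish was singled out after the values were seen, so these shares describe the libraries and are not a test. MDM2 in replicate 3 was 1.91 times the mean of the other dishes in YAP1 KO cells and 2.75 times in CTRL cells, and it ranked 37 and 22 of 13113 genes for that excess. AEN had ratios of 1.69 in YAP1 KO and 1.54 in CTRL cells, and TP53INP1 ratios of 1.04 and 1.10. CDKN1A, a classical p53 target that encodes the CDK inhibitor p21, went the same way, at 78.9, 88.3 and 121 FPKM in YAP1 KO and 64.5, 73.8 and 117 FPKM in CTRL cells under OT. MDM4 was not highest in replicate 3 in either group. Relative depth of these libraries was 1.06, 1.01 and 1.04 in YAP1 KO and 1.42, 1.04 and 0.945 in CTRL cells; its part in the result was not tested. The replicates have no shared batch label.

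**Figure D4:**
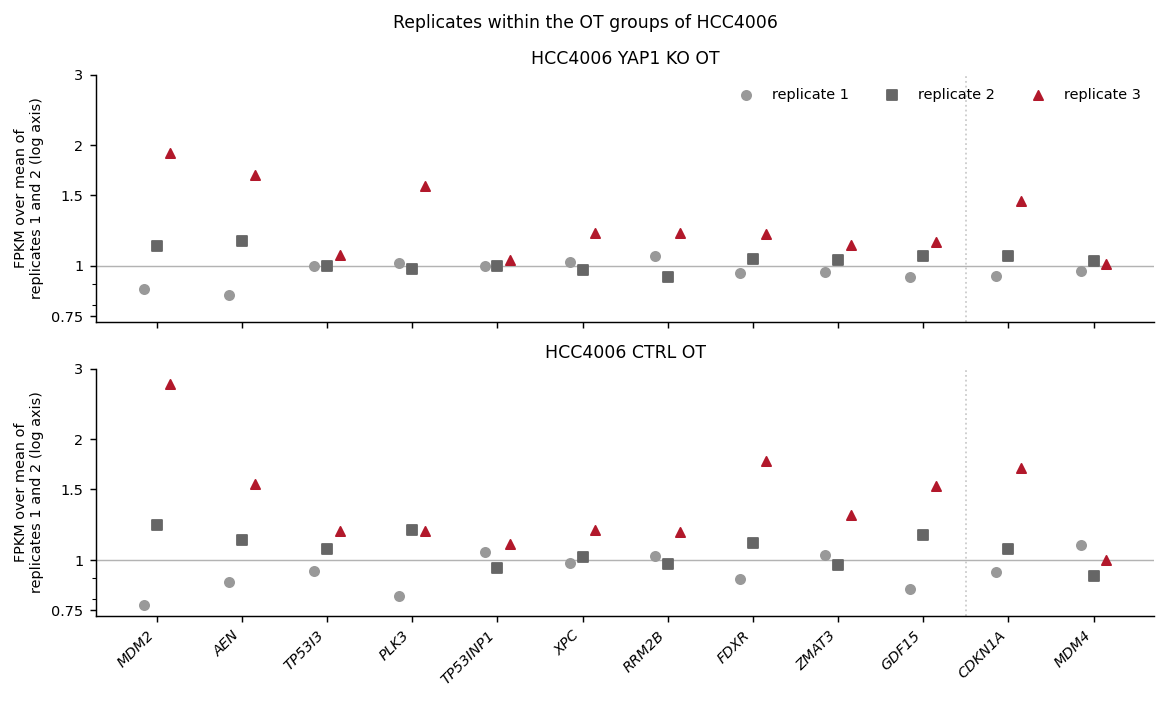
FPKM of each OT dish of HCC4006 relative to the mean of replicates 1 and 2 (log axis), for the 10 genes and CDKN1A and MDM4, in YAP1 KO and CTRL cells. Replicate 3 lies highest for MDM2, at 1.91 and 2.75 times that mean, and near the other dishes for MDM4.

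The other genes of the pathway were taken from named lists. MDM4, the inhibitor related to MDM2, rose under OT in HCC4006, by 0.62 in YAP1 KO and 0.51 in CTRL cells on the log2 scale; in PC9 it was not called in YAP1 KO cells (-0.07, limma adjusted p = 0.234) and was lower in CTRL cells (-0.12, adjusted p = 0.0487). CDKN1A rose by 0.71 in YAP1 KO and 0.76 in CTRL cells of HCC4006 (limma adjusted p = 0.00460 and 0.00311) and by 0.38 in PC9 YAP1 KO cells (adjusted p = 0.000282), and was not called in PC9 CTRL cells (0.05, adjusted p = 0.539). The interaction in PC9 was called for it (0.33, adjusted p = 0.0263). In PC9, CDKN1A was higher in YAP1 KO than in CTRL cells, with means of 19.4 against 7.24 FPKM under OT (1.30, adjusted p = 3.07e-08).

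Of 29 other p53 targets on the list, 28 were tested in HCC4006, where 13 rose and 9 fell under OT in YAP1 KO cells and 15 rose and 7 fell in CTRL cells, beside the 46.4% and 36.5% of all genes called higher and lower in YAP1 KO and the 45% and 36.6% in CTRL cells. In PC9, 27 were tested, with 14 higher and 11 lower in YAP1 KO cells and 12 higher and 12 lower in CTRL cells, beside 36.9% and 41.4% of all genes in YAP1 KO and 32% and 40.9% in CTRL cells. Their medians in HCC4006 were 0.21 in YAP1 KO and 0.33 in CTRL cells, and in PC9 0.27 and -0.01, where all genes had medians of 0.11, 0.09, -0.02 and -0.04. TRIM22, an antiviral ubiquitin ligase, had means of 15.5 FPKM under OT and 0.195 FPKM under DMSO in HCC4006 CTRL cells. BTG2, an antiproliferative regulator of mRNA decay, rose by 1.85 in HCC4006 and 1.40 in PC9 CTRL cells, KIAA0247 by 2.34 and 1.37, and BBC3, the BH3-only protein PUMA, by 2.57 and 0.88, each with a limma adjusted p below 0.05. Of 28 p53 regulators, 15 rose and 9 fell among 25 tested in HCC4006 CTRL cells and 9 rose and 10 fell among 26 in PC9 CTRL cells, beside the same shares of all genes. CHEK1 and CHEK2, the checkpoint kinases that act on p53, fell by 2.01 and 1.56 in HCC4006 CTRL cells and by 1.48 and 1.13 in PC9 CTRL cells. AURKA, a mitotic kinase, fell by 3.86 and 0.97, and PML, the organiser of nuclear bodies, rose by 1.30 and 0.70.

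Of 16 partners and relatives of the 10 gene products tested, 12 fell and 3 rose in HCC4006 CTRL cells, beside 36.6% and 45% of all genes, and 10 fell and 3 rose in PC9 CTRL cells, beside 40.9% and 32%. RRM2B stood apart from its relatives in ribonucleotide reductase. RRM2, the S-phase subunit, had means of 2.03 FPKM under OT and 64.4 FPKM under DMSO in HCC4006 CTRL cells, and 15.5 FPKM under OT and 62.1 FPKM under DMSO in PC9 CTRL cells, falls of 4.46 and 1.94 on the log2 scale. RRM1, the large subunit, fell by 2.36 and 1.32, whereas RRM2B changed by 0.25 and 0.07. PLK1 and PLK4, the polo-like kinases of mitosis and centriole duplication, fell by 4.03 and 2.93 in HCC4006 CTRL cells and by 1.20 and 1.50 in PC9 CTRL cells, the direction of PLK3. RAD23B, which binds XPC in the damage sensor, fell by 0.80 in HCC4006 CTRL cells and by 0.57 in PC9 CTRL cells, where XPC rose. FDX1, the ferredoxin that FDXR reduces, fell by 0.76 and 0.59. TP53INP2, the relative of TP53INP1 that drives autophagosome formation, rose by 2.99 in HCC4006 and 0.53 in PC9 CTRL cells; RAD23B, FDX1 and TP53INP2 were singled out after their values were seen.

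**Figure D5:**
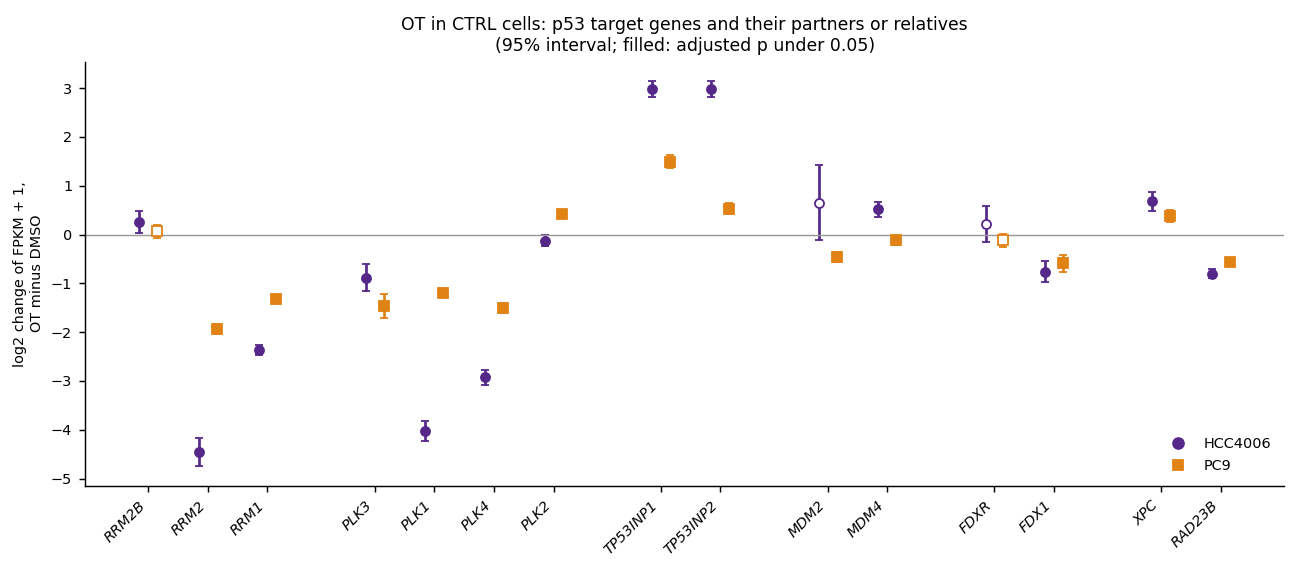
Change under OT in CTRL cells, on the log2(FPKM + 1) scale (y axis, with 95% intervals from limma), for members of the list beside their partners and relatives; circles are HCC4006 and squares are PC9. RRM2 lies at -4.46 and -1.94 while RRM2B lies at 0.25 and 0.07, and TP53INP1 and TP53INP2 both lie above 0.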

How the data were processed

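RNA from 24 libraries, 3 dishes in each of 8 groups, was made into stranded mRNA libraries, per the labels' protocols. The authors deposited FPKM values per gene in 1 table with no counts. Per the submitters' processing notes the tools were Cufflinks 2.2.1, STAR 2.5.1b and DESeq2 1.10.1 and the builds hg19 and GRCh37, with no role given for any; the annotation, and whether strand was used in counting, are not given in the sources used here. Columns whose names say untreated were matched to the DMSO samples of the same line, genotype and number.

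Values were tested as log2(FPKM + 1) with limma 3.58.1 in R 4.3.3 (trend and moderated variance), and Benjamini-Hochberg adjustment ran over all genes with at least 1 FPKM in at least 3 libraries of the fit. A fold change on this scale understates the change of genes at low level. Each line was fitted apart (12 libraries, 8 residual degrees of freedom, 5 comparisons), and both lines together (24 libraries, 16 residual degrees of freedom, genes past the filter in each line) for 6 comparisons between lines, 16 comparisons in all. Ratios are of mean FPKM. Correlations of deviations from the group means paired equal replicate numbers in 1 of the tested comparisons, HCC4006 CTRL OT against DMSO, where all 3 were 0.134 to 0.146. No label says that a number marks a shared batch. The fits were tested on simulated data.

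The 10 genes and all gene lists were chosen with earlier results of these data known. Named beside the 10 are YAP1, MDM4, CDKN1A, RRM2, RRM1 and PLK1, up to 4 genes of each other list with the largest mean size of OT change in CTRL cells over both lines among those called in 1 line or more, and the 3 genes most correlated with each of the 10; a gene that this rule also names is not reported here. Alternatives were pseudocounts of 0.1 and 0.01, no filter, a filter at 5 FPKM, median-of-ratios scaling, rescaling to the same sum, a replicate block, 1 fit for all libraries, and leaving out each library. Promoter windows came from RefSeq (GRCh38.p14) and were used for sequence only.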

Additional observations from a re-analysis of the deposited data

Results flagged for a closer look

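The response to OT differed between YAP1 KO and CTRL cells for TP53INP1 in HCC4006 (0.65 on the log2 scale) and in PC9 (0.70), and in PC9 also for XPC (0.48) and FDXR (0.29), each by the interaction term in limma. All 4 of these called responses were more positive in YAP1 KO cells, and the estimates that were not called went both ways.

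The response to OT also differed between the lines, as HCC4006 minus PC9. In YAP1 KO cells the differences were 1.43 for TP53INP1, 0.57 for AEN, 0.56 for TP53I3 and -2.11 for GDF15. In CTRL cells they were 1.48 for TP53INP1, 1.11 for MDM2, 0.84 for AEN, 0.58 for PLK3, 0.49 for TP53I3, 0.30 for XPC and -0.97 for GDF15. For GDF15 the 2 lines moved in opposite directions. For TP53INP1 the lowest differences over the alternatives were 0.88 in YAP1 KO and 0.77 in CTRL cells.

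The difference between YAP1 KO and CTRL cells differed between the lines under DMSO for TP53I3 (-0.32). Under OT it did so for GDF15 (-0.93), XPC (-0.51), PLK3 (-0.46) and TP53I3 (-0.26). The PLK3 value was at the edge of the threshold (limma adjusted p = 0.0453) and was lost in 15 of 24 fits that left out 1 library. TP53I3 under OT was lost in 4 of 24: without HCC4006 YAP1 KO OT replicate 1, HCC4006 CTRL OT replicate 3, PC9 YAP1 KO OT replicate 3 or PC9 CTRL OT replicate 1. AEN in YAP1 KO cells was lost in 7 of 24 such fits.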

How the results depend on the processing

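Over 3641 values of single genes under the alternatives, 3455 kept their direction and side of the threshold, 49 that were called neither before nor after changed sign, 67 passed the threshold newly and 70 no longer passed it; none of the called values changed sign. Of 74 called results, 11 were lost in at least 1 fit that left out a single library, and of 75 not called, 18 were called in at least 1 such fit. Absolute depth is unknown and no counting error is given. Genes near 1 FPKM, such as ZMAT3 and PLK3 in PC9, depend on the filter and pseudocount.

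The numbers of listed genes called under OT in HCC4006 were 5 in YAP1 KO and 5 in CTRL cells with a filter at 5 FPKM, which tests fewer genes, in place of 8 each. That filter leaves ZMAT3, RRM2B and PLK3 untested in HCC4006. For YAP1 KO against CTRL in HCC4006 under DMSO, 2 genes were called with a replicate block and 2 with a fit of all 24 libraries, in place of 1, and 0 to 1 without 1 library; over all genes 1443 to 3330 were called without 1 library, in place of 2340. Under OT in HCC4006, 1 was called with the filter at 5 FPKM, 4 after rescaling to the same sum and 4 with a replicate block (2 higher and 2 lower each), in place of 2 higher, and 1 to 4 without 1 library. The HCC4006 interaction called 2 genes after rescaling to the same sum, 2 with a replicate block, 2 without OT replicate 3 of both genotypes, a setting chosen after seeing the data, and 1 to 2 without 1 library, in place of 1. In PC9 under DMSO, 1 gene was called with a pseudocount of 0.1 (TP53INP1, 0.38) and 1 with a pseudocount of 0.01, and 0 to 1 without 1 library, in place of 0. For the difference in YAP1 KO effect between lines, 2 genes were called under DMSO with a replicate block in place of 1, and 2 to 4 under OT without 1 library in place of 4. Without 1 library, 4697 to 6093 of all genes were called under OT in HCC4006, in place of 5716, and 1838 to 2977 for its interaction, in place of 2444. In PC9 under DMSO 4255 to 5134 were called, in place of 5057. Between lines these numbers were 3126 to 4208 under DMSO and 4602 to 5186 under OT, in place of 3557 and 5037. For the other settings the share of all genes called is not given, so these counts cannot be read as particular to the listed genes. The cause of these shifts was not tested.

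Over the whole of a line, equal replicate numbers did not pair the dishes: the 18 same-numbered pairs within PC9 had correlations of -0.264 to 0.161, 3 of them over 0.1, and the 18 within HCC4006 had -0.150 to 0.236, 5 of them over 0.1. In 1 tested comparison they did by this measure. Between HCC4006 CTRL OT and CTRL DMSO the 3 same-numbered pairs had 0.134 to 0.146 and the 6 others -0.129 to -0.024. There the replicate block added MDM2 to the calls (limma adjusted p = 0.0297). Between HCC4006 YAP1 KO OT and DMSO the same-numbered pairs had -0.150 to -0.093. CTRL OT and YAP1 KO DMSO, which were not compared directly, were also paired in PC9, at 0.046 to 0.161 against -0.183 to 0.029 for the others. In HCC4006 those 2 groups overlapped, at 0.073 to 0.236 against -0.209 to 0.102. A replicate block stands as an alternative, with 9 of 10 genes called under OT in each HCC4006 genotype, 8 of 9 in PC9 YAP1 KO and 7 of 9 in PC9 CTRL cells. The share of all genes called with the block is not given here, so these counts cannot be read as particular to the listed genes.

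Scaling moved the median of all genes by over 0.1 in 4 of 16 comparisons. Rescaling to the same sum put that median at 0.28 in HCC4006 YAP1 KO cells and 0.28 in CTRL cells under OT, in place of 0.11 and 0.09. For the OT response between lines in CTRL cells the median was 0.22 after rescaling to the same sum and -0.05 under median-of-ratios scaling, in place of 0.08, and in YAP1 KO cells it was -0.05 under median-of-ratios scaling, in place of 0.10. The share of all called genes that were higher moved by over 10 points in 7 of 16 comparisons, to 66.6% from rescaling in HCC4006 CTRL cells under OT, in place of 55.1%.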

Other observations

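Across the 24 libraries, with each line centred on its own mean, the genes split by how closely others followed them. TP53INP1 and TP53I3 rose and fell together (Pearson r = 0.960), as did AEN and PLK3 (0.945), and MDM2 was nearest to FDXR among the 10 (0.704). Of 11844 genes, TP53INP1 was most like ALPK1 (0.996), TP53I3 most like LAPTM4A (0.988), AEN most like C12orf29 (0.973), PLK3 most like UBE2E3 (0.970) and XPC most like C10orf10 (0.966). GDF15 was most like FLRT3 (0.897) and RRM2B most like LINC00657 (0.891). MDM2 had lower values, at 0.774 with PPM1D, a p53 target that encodes a phosphatase acting on p53, and FDXR had 0.764 with NARF. The libraries share their treatment groups, so most of these values follow the difference between OT and DMSO.

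GDF15 can be set beside the ATF4 stress genes, and PLK3 beside the immediate early genes. Of 15 ATF4 genes, under OT 14 rose and 0 fell in HCC4006 YAP1 KO cells and 13 rose and 1 fell in CTRL cells, where GDF15 fell. Of all HCC4006 genes, 46.4% were called higher and 36.5% lower in YAP1 KO cells, and 45% and 36.6% in CTRL cells. In PC9, 5 rose and 7 fell in YAP1 KO cells and 5 rose and 10 fell in CTRL cells, where GDF15 rose. The shares of all PC9 genes called higher and lower were 36.9% and 41.4% in YAP1 KO and 32% and 40.9% in CTRL cells. NUPR1, a stress-induced chromatin protein, had means of 570.3 FPKM under OT and 23.3 FPKM under DMSO in HCC4006 CTRL cells, while CHAC1, which degrades glutathione, and PHGDH, of serine synthesis, rose in HCC4006 CTRL cells by 2.73 and 1.27 and fell in PC9 CTRL cells by 0.50 and 0.91 on the log2 scale. Of 10 immediate early genes tested in each line, 4 rose and 3 fell in HCC4006 CTRL cells and 4 rose and 5 fell in PC9 CTRL cells. These counts lay near the CTRL shares of all genes given above. FOSL1, an AP-1 subunit downstream of ERK, fell by 3.47 in HCC4006 and 3.17 in PC9 CTRL cells. The other genes of that list named by the rule rose: ATF3, which is on both lists, by 2.47 and 1.01, DUSP1 by 1.85 and 1.20, and JUNB by 0.75 and 1.16.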
